A study of Mus musculus with 4 samples.

Results

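Neurexins, neuroligins and the leucine-rich repeat transmembrane proteins (LRRTMs) are adhesion proteins that meet across the synaptic cleft. Neurexins sit in the presynaptic membrane and are made in a long alpha form and a short beta form, read from separate promoters of the same gene. Neuroligins and LRRTMs sit in the postsynaptic membrane and bind the extracellular part of neurexins, and alternative exons on both sides tune which partners can bind. In the hippocampus these pairs are known for shaping excitatory and inhibitory synapses.

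The 9 genes described here are Nrxn2 and Nrxn3, Nlgn1, Nlgn2 and Nlgn3, and Lrrtm1, Lrrtm2, Lrrtm3 and Lrrtm4. They were chosen by name, and Nrxn2 and Nrxn3 are the neurexin genes analysed here. RefSeq transcripts were mapped to gene symbols and summed, so that these 9 genes and their 25 transcripts stand among 16148 genes and 30108 transcripts measured. All 9 genes and all 25 transcripts passed the filter on low signal.

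Hippocampal total RNA was compared between wild-type mice (WT-WD, 2 libraries) and mice with a knockout of Tas1r3, which encodes a subunit of the sweet and umami taste receptors (KO-WD, 2 libraries). Mice of both genotypes had eaten a western diet, rich in fat and sugar, for 18 weeks, so every value below belongs to that diet. The sources used here do not give strain, sex, age or how the knockout allele was made. The labels do not state whether each library is a separate animal. The p-values therefore reflect only how far these samples spread, and that spread may be technical.

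Values are the normalized signal the authors deposited, in units that give each library nearly the same total. From the value at which low signals piled up, 1 read was estimated to be worth between 0.188 and 0.258 units. The depth is then a rough estimate of 11596036 to 15939446 reads per library. The upper figure is the least secure. It comes from WT-WD replicate 2, whose pile held 24 transcripts, against 65 to 121 in the other libraries. Tas1r3 itself had 16.1 and 15.9 units in WT-WD against 0.887 and 1.85 in KO-WD, so each library matched its genotype label. Its log2 difference of -2.88 (SE 0.34) had a limma adjusted p of 0.0813, so even the targeted gene missed the threshold of 0.05 used below. All 13 markers listed for dentate granule cells and for CA1 and CA3 pyramidal cells were detected. Of the choroid plexus markers, all 8 had a log2 difference above 0, and 0 of 8 passed the test. In 6 of 8 both KO-WD libraries were above both WT-WD libraries, against 17.9% of all genes. The summed signal of all 8 was 3633 and 1486 units in WT-WD and 7268 and 3687 in KO-WD. Most of it was Ttr, whose genotypes overlapped, with 3212 and 1223 units in WT-WD and 6440 and 3078 in KO-WD. The 8 oligodendrocyte markers all had a log2 difference below 0, with a median of -0.39 and 0 of 8 past the test. No marker of either list was at 0 in any library, and their part in the values below was not tested. In bulk tissue, fewer cells of a type and less RNA per cell cannot be told apart.

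None of the 9 genes differed between genotypes past the threshold in limma, an adjusted p of 0.05 over 15707 genes, where 10 genes passed (0.0637%). At an unadjusted p under 0.05 there was 1 of the 9, Lrrtm3, against 5.28% of all genes. In Nlgn1, Lrrtm1 and Lrrtm3 both KO-WD libraries lay below both WT-WD libraries, which is 3 of 9 genes where 18.4% of all genes did the same. In 0 of 9 genes were both KO-WD libraries above, against 17.9% of all genes, and in the other 6 the genotypes overlapped. These counts use sums over all transcripts of a gene. Most of the Lrrtm1 sum was non-coding, and its coding transcripts alone summed higher in both KO-WD libraries. The median log2 difference of the 9 genes was -0.05, beside 0.00 for all genes tested. Differences are KO-WD minus WT-WD on the log2(value + 1) scale.

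**Figure D1:**
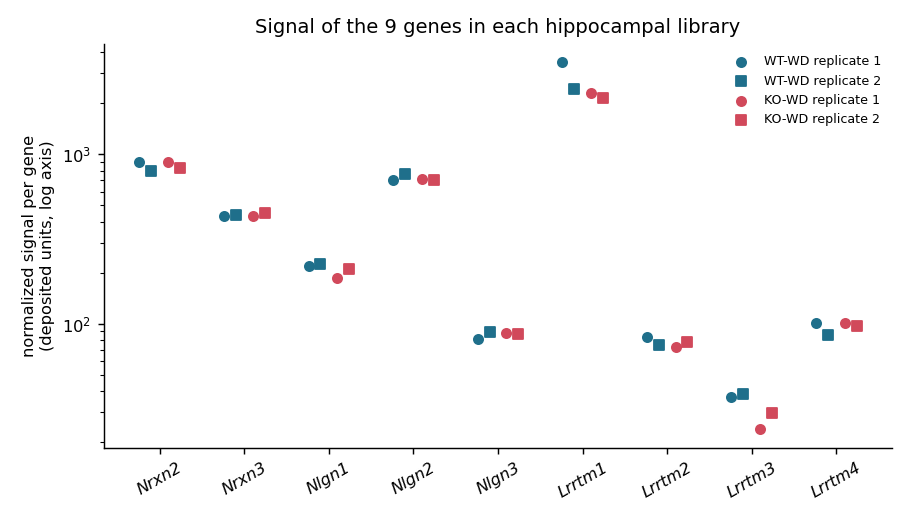
Normalized signal of each gene (log axis, deposited units) in the 4 libraries, with WT-WD in blue and KO-WD in red and the replicates as circles and squares. The genotypes overlap in 6 genes, and the KO-WD points of Nlgn1, Lrrtm1 and Lrrtm3 lie below the WT-WD points.

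**Figure D2:**
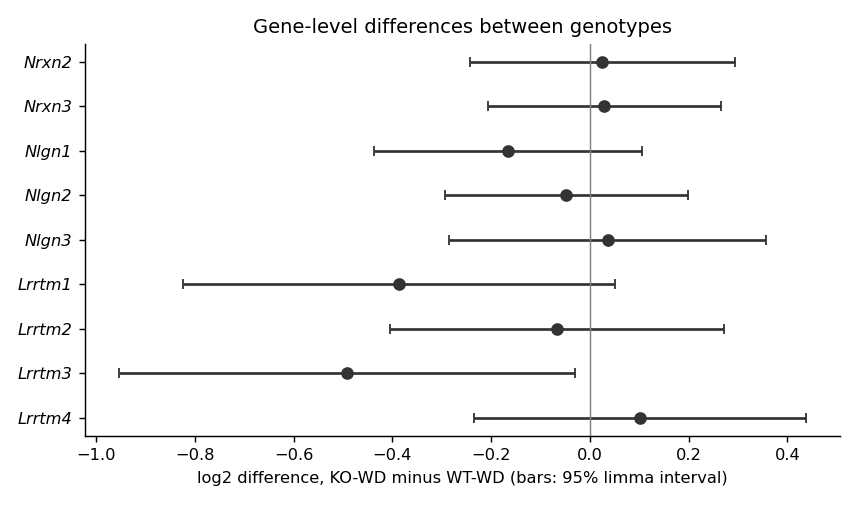
Log2 difference between KO-WD and WT-WD of each gene, with the 95% interval of the limma fit as bars. The interval of Lrrtm3, from -0.95 to -0.03, is the one that leaves out 0, and its adjusted p of 0.902 missed the threshold.

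Because the deposited signal grows with transcript length, levels of different genes were set side by side per kilobase, over coding transcripts whose length could be matched in GENCODE M21. On that scale Nlgn2 had a WT-WD level of 139 ± 7.17 units per kilobase (SD, n = 2). Nrxn2 had 77.7 ± 7.03, with 3 of its 4 transcripts matched, the coding transcripts of Lrrtm1 had 67.8 ± 13.4, and Nrxn3 had 63.7 ± 0.68. Lrrtm1 overlapped Nrxn2 and Nrxn3 in its library values, so its place in the order beside them is not resolved. Lrrtm4 followed with 29.2 ± 3.43, Nlgn1 with 21.7 ± 3.00 over 2 of its 5 transcripts, and Lrrtm2 with 14.0 ± 1.05. Nlgn3, at 10.03 ± 0.60, and Lrrtm3, at 9.67 ± 0.30, overlapped at the lower end. The levels of Nrxn2 and Nlgn1 are lower limits, since their unmatched transcripts carry signal too. The order of Nlgn2 and Nrxn2, and the place of Nlgn1 beside the genes above it, are therefore not resolved. Shares of signal given below were not corrected for length and are not shares of molecules.

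On the presynaptic side, Nrxn2 had 902 and 796 units in WT-WD and 899 and 826 in KO-WD. Nrxn3 had 430 and 437 units in WT-WD and 435 and 451 in KO-WD. The genotypes overlapped in both genes. The log2 difference was 0.02 (SE 0.11, limma adjusted p = 0.989) for Nrxn2 and 0.03 (SE 0.10, limma adjusted p = 0.983) for Nrxn3. The 95% intervals allow a KO-WD level between 0.845 and 1.23 times that of WT-WD for Nrxn2, and between 0.866 and 1.20 times for Nrxn3. Nrxn2 supplied 66.1% ± 2.22 of the signal of both genes in WT-WD and 66.0% ± 1.94 in KO-WD (SD, n = 2 each).

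At the exon known as splice site 4, neurexins gain or lose a stretch of the domain that their partners bind. LRRTM1, LRRTM2 and neuroligin-1 with its site B insert favour neurexins without it, and the secreted cerebellins need it. The exon is shown for Nrxn3 because it separates these partners, in capitals with 15 bases of flanking exon on each side in lower case, from GENCODE M21 transcripts (GRCm38). It is a coding exon at chr12:90199147-90199236 on the plus strand.
Nrxn3 splice site 4 exon: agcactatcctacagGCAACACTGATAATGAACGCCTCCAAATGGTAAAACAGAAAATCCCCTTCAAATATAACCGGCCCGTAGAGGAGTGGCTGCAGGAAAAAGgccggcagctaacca
The exon has 90 bases. All 3 Nrxn3 transcripts include it, so these values cannot give the share of Nrxn3 RNA that lacks the exon.

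Nrxn3 is the gene whose alpha and beta forms could be separated. The alpha transcript NM_001198587, of 1571 codons, had 346 and 372 units in WT-WD and 374 and 369 in KO-WD. The beta transcript NM_001252074, of 567 codons, had 39.1 and 37.0 units in WT-WD and 34.8 and 28.8 in KO-WD. Both KO-WD libraries were below both WT-WD libraries for the beta transcript, while the alpha values overlapped. The alpha transcript made up 82.6% ± 3.31 of Nrxn3 signal in WT-WD and 83.9% ± 3.03 in KO-WD. The beta transcript made up 8.78% ± 0.44 and 7.20% ± 1.15 (SD, n = 2 each). Per kilobase, the alpha transcript stood at 43.6 and 46.9 units in WT-WD and 47.2 and 46.6 in KO-WD, against 10.7 and 10.1, then 9.53 and 7.89, for the beta transcript. The log2 difference of the beta transcript was -0.26 (SE 0.24, limma adjusted p = 0.950), and that of the alpha transcript was 0.05 (SE 0.12, limma adjusted p = 0.987). A further transcript of intermediate length, NM_172544 with 1100 codons, varied within genotypes, with 45.8 and 28.8 units in WT-WD and 25.9 and 53.6 in KO-WD.

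The alpha and beta transcripts have different annotated starts, and windows around these starts are shown to let a reader compare them. Each window runs from 250 bases before to 50 bases after the start and comes from RefSeq on GRCm38.p6, plus strand, with each CG pair in capitals. The alpha window is chr12:88794254-88794553 and the beta window is chr12:89812233-89812532.
Nrxn3 alpha start: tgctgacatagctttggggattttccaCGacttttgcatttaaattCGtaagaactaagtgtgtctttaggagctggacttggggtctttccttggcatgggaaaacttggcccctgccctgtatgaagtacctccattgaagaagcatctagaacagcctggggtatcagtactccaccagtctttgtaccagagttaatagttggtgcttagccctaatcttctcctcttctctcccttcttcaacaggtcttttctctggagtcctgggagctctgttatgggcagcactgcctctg
Nrxn3 beta start: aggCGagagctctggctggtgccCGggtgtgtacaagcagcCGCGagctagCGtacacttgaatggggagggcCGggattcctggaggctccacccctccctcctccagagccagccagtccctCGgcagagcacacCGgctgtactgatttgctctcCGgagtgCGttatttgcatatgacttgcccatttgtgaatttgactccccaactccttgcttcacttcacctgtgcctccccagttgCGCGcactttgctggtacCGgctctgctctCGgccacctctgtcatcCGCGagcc
CG, which reads the same on both strands, occurs 2 times in the alpha window and 16 times in the beta window. Of 32851 promoter windows of this length, 85.9% have at least 2 CG pairs and 33.0% have at least 16. The GC content is 47.3% in the alpha window and 60.7% in the beta window. These counts describe the letters of the windows and were not tied to the signal. The bases just before the annotated alpha start are rich in C and T and end in cag, as introns do. That window may therefore be intron rather than promoter, which was not tested, so the counts are not a contrast between promoters.

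The matched transcripts of Nrxn2 are long, and 1 of its 4 transcripts could not be matched. NM_001205234, of 1703 codons, had 425 and 355 units in WT-WD and 422 and 422 in KO-WD. NM_001369363, whose structure was not matched, had 364 and 328 in WT-WD and 395 and 328 in KO-WD. NM_001205235, of 1503 codons, had 102 and 85.3 units in WT-WD and 69.4 and 62.6 in KO-WD. Both KO-WD libraries were below both WT-WD libraries for this transcript. Its share of Nrxn2 signal was 11.3% and 10.7% in WT-WD and 7.72% and 7.58% in KO-WD. Its log2 difference was -0.49 (SE 0.18) with an unadjusted p of 0.0480 and a limma adjusted p of 0.875. Measured against the rest of the gene, the log2 ratio differed by -0.57 (SE 0.30, limma adjusted p = 0.929). NM_020253, of 1511 codons, was the lowest, with 11.4 and 27.8 units in WT-WD and 12.2 and 14.2 in KO-WD.

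One difference between NM_001205235 and NM_001205234 is a coding exon of 24 bases at chr19:6463824-6463847 (GRCm38, plus strand), which NM_001205235 lacks and NM_001205234 and NM_020253 include. It is shown in capitals between 15 bases of each neighbouring exon.
Nrxn2 24-base exon: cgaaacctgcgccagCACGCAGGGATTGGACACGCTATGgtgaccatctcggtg

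**Figure D3:**
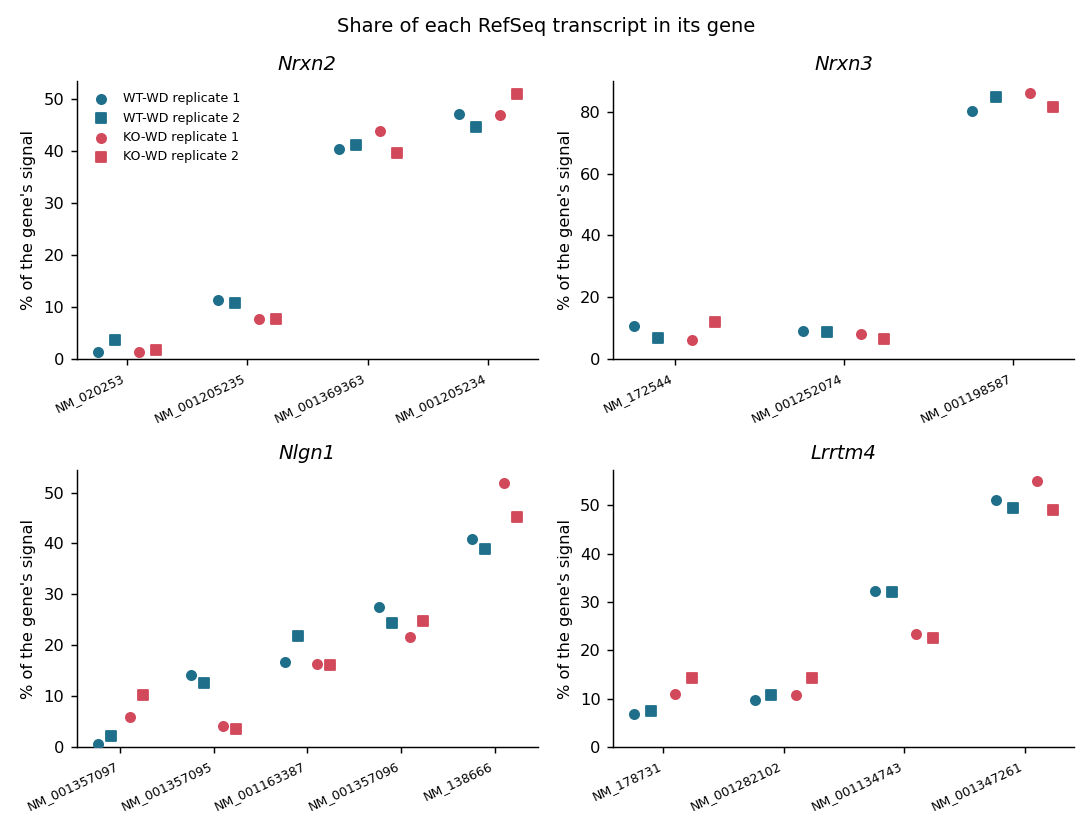
Percent of the gene's signal carried by each RefSeq transcript of Nrxn2, Nrxn3, Nlgn1 and Lrrtm4 in the 4 libraries (WT-WD blue, KO-WD red, circles replicate 1, squares replicate 2). In Nlgn1, NM_001357095 has 14.2% and 12.7% in WT-WD and 4.20% and 3.62% in KO-WD. In Lrrtm4, NM_001134743 has 32.2% and 32.1% against 23.3% and 22.5%.

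Neuroligins are the postsynaptic partners with distinct synapse types. Nlgn1 acts at excitatory synapses, Nlgn2 at inhibitory synapses and Nlgn3 at both. Nlgn2 had 703 and 769 units in WT-WD and 718 and 704 in KO-WD. Nlgn3 had 81.3 and 88.6 in WT-WD and 87.9 and 86.2 in KO-WD. The genotypes overlapped for both genes. Nlgn1 had 217 and 225 units in WT-WD and 186 and 209 in KO-WD, lower in both KO-WD libraries. The log2 difference was -0.17 for Nlgn1 (SE 0.12, limma adjusted p = 0.911), -0.05 for Nlgn2 (SE 0.10, limma adjusted p = 0.970) and 0.04 for Nlgn3 (SE 0.14, limma adjusted p = 0.985). Leaving out 1 library at a time gave -0.25 to -0.084 for Nlgn1. The intervals allow KO-WD levels of 0.738 to 1.08 times WT-WD for Nlgn1, 0.816 to 1.15 times for Nlgn2 and 0.821 to 1.28 times for Nlgn3.

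Within the family, Nlgn2 held 70.6% ± 0.59 of the signal in WT-WD and 71.4% ± 1.35 in KO-WD. Nlgn1 held 21.3% ± 0.63 and 19.8% ± 1.51 (SD, n = 2 each). Nlgn3 held 8.12% and 8.18% in WT-WD and 8.86% and 8.63% in KO-WD, so its genotypes did not overlap. With 2 libraries against 2, an exact permutation test of a share cannot go below p = 0.33, which is the two-sided value for Nlgn3.

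Neuroligins carry their own alternative exons in the part of the protein outside the cell. Site A is shown for all 3 genes and the site B insert for Nlgn1, where it weakens binding to alpha-neurexins. All are coding and come from GENCODE M21 transcripts (GRCm38), in capitals with 15 bases of flanking exon on each side, 5′ to 3′ on the coding strand. Site A lies at chr3:25920178-25920237 on the minus strand in Nlgn1, at chr11:69830563-69830613 on the minus strand in Nlgn2 and at chrX:101307075-101307134 on the plus strand in Nlgn3. The site B insert, 27 bases at the end of an exon, lies at chr3:25439865-25439891 on the minus strand, and the last line gives the same junction without it.
Nlgn1 splice site A exon: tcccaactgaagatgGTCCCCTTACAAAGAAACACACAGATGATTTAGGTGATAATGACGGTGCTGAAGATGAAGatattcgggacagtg
Nlgn2 splice site A exon: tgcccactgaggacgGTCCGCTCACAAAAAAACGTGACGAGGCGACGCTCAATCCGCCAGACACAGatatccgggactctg
Nlgn3 splice site A exon: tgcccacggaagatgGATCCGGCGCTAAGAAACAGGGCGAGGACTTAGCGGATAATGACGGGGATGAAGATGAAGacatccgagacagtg
Nlgn1 site B insert: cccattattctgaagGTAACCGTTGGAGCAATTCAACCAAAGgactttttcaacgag
Nlgn1 junction without site B: cccattattctgaaggactttttcaacgag
The Nlgn1 and Nlgn3 exons both have 60 bases and share 43 of them (71.7%), and the Nlgn2 exon has 51.

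The Nlgn1 transcript with both site A and site B, NM_138666 (843 codons), had 88.9 and 87.9 units in WT-WD and 96.6 and 94.3 in KO-WD. The transcript with neither, NM_001163387 (814 codons), had 36.2 and 49.3 units in WT-WD and 30.5 and 33.6 in KO-WD. The genotypes did not overlap in either transcript and differed in opposite directions. Only these 2 of the 5 Nlgn1 transcripts had a matched structure. The values therefore do not give the share of Nlgn1 RNA with site A or site B. NM_138666 has 11807 bases and NM_001163387 has 3013. Per kilobase, NM_138666 stood at 7.53 and 7.45 units in WT-WD and 8.18 and 7.99 in KO-WD. NM_001163387 stood higher in every library, at 12.03 and 16.35 in WT-WD and 10.13 and 11.15 in KO-WD. Without correction for length, NM_138666 made up 40.0% ± 1.36 of Nlgn1 signal in WT-WD and 48.6% ± 4.75 in KO-WD. NM_001163387 made up 19.3% ± 3.67 and 16.3% ± 0.21 (SD, n = 2 each). The log2 differences were 0.11 (SE 0.15, limma adjusted p = 0.962) and -0.39 (SE 0.26, limma adjusted p = 0.939).

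The largest relative differences among the 25 transcripts were in 2 other Nlgn1 transcripts, whose exon structure was not matched. NM_001357095 had 30.8 and 28.6 units in WT-WD and 7.81 and 7.55 in KO-WD, from an estimated 119, 153, 35.2 and 32.6 reads. NM_001357097 had 1.50 and 4.79 units in WT-WD and 10.9 and 21.5 in KO-WD, from an estimated 5.79, 25.5, 49.2 and 92.8 reads. The genotypes did not overlap in either transcript, and values within a genotype were close in the first, while they varied several-fold in the second among the WT-WD libraries. The log2 difference of NM_001357095 was -1.82 (SE 0.31), with an unadjusted p of 0.00279 and a limma adjusted p of 0.816. It lay between -1.94 and -1.77 under the alternatives tried. The log2 difference of NM_001357097 was 2.11 (SE 0.66), with an unadjusted p of 0.0284 and a limma adjusted p of 0.844. NM_001357096, also unmatched, had 59.9 and 54.8 units in WT-WD and 40.2 and 51.7 in KO-WD.

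Set against the rest of Nlgn1, the log2 ratio of NM_001357095 differed by -1.81 (SE 0.55, unadjusted p = 0.0238, limma adjusted p = 0.929) and that of NM_001357097 by 2.37 (SE 0.83, unadjusted p = 0.0394, limma adjusted p = 0.929). Those were 2 of 22 transcripts of the multi-transcript genes at an unadjusted p under 0.05, where 4.96% of 19892 transcripts were, and 0 of 22 passed the adjusted threshold (0% of all). Transcripts of 1 gene share exons, so reads in common are divided by the authors' quantification, and signal can pass from one transcript to another.

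Nlgn2 has 2 transcripts of 836 codons each, NM_198862 with 5003 bases in 7 exons and NM_001364137 with 5568 bases in 8. NM_198862 had 360 and 275 units in WT-WD and 357 and 337 in KO-WD. NM_001364137 had 343 and 494 in WT-WD and 361 and 367 in KO-WD. WT-WD replicate 2 stood apart from the other 3 libraries in both, in opposite directions, while the gene sum overlapped between genotypes.

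Over all 25 transcripts, 0 passed the adjusted threshold in limma (0% of 29293 transcripts), and 4 had an unadjusted p under 0.05, against 5.69% of all transcripts. Both KO-WD libraries were lower in 8, against 17.9% of all transcripts, and higher in 5, against 17.1%. The genotypes thus separated in 13 of 25, where they separated in 35% of all transcripts.

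LRRTMs complete the postsynaptic side and support excitatory synapses. LRRTM1 and LRRTM2 bind neurexins by their leucine-rich repeats, and LRRTM3 and LRRTM4 also bind the heparan sulfate chains that neurexins and glypicans carry. Lrrtm3, which has 1 transcript, had 36.9 and 38.5 units in WT-WD and 23.7 and 29.6 in KO-WD, from an estimated 143, 205, 107 and 128 reads. Both KO-WD libraries were below both WT-WD libraries. Its log2 difference was -0.49 with an SE of 0.20, or a 1.41-fold lower level in KO-WD. The fit gave a 95% interval from -0.95 to -0.03, an unadjusted p of 0.0397 and a limma adjusted p of 0.902. Leaving out 1 library at a time gave -0.65 to -0.34. In the same libraries the 6 general neuron markers and the 5 cortical markers all had log2 differences below 0, with medians of -0.09 and -0.20. Log2 differences were above 0 for 3 of 4 excitatory neuron markers (median 0.05), 4 of 5 dentate granule cell markers (median 0.14) and 4 of 4 CA3 markers (median 0.25). They were below 0 for 3 of 4 CA1 markers (median -0.10) and 4 of 6 inhibitory neuron markers (median -0.09). None of these markers passed the test, and their part in the value of Lrrtm3 was not tested. In the GRCm38.p6 gene table Lrrtm3 lies inside Ctnna3. Ctnna3 had 1.74 and 0.203 units in WT-WD and 3.13 and 4.05 in KO-WD, higher in both KO-WD libraries (limma adjusted p = 0.902).

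Lrrtm2 and Lrrtm4 overlapped between genotypes as genes. Lrrtm2 had 83.4 and 75.0 units in WT-WD and 73.1 and 77.9 in KO-WD, with a log2 difference of -0.07 (SE 0.14, limma adjusted p = 0.970). Lrrtm2 lies inside Ctnna1, which had between 113 and 125 units. Lrrtm4, which is prominent on dentate granule cells, had 100.1 and 85.1 units in WT-WD and 100.9 and 97.4 in KO-WD, with a log2 difference of 0.10 (SE 0.14, limma adjusted p = 0.946). The intervals allow KO-WD levels of 0.755 to 1.21 times WT-WD for Lrrtm2 and 0.850 to 1.35 times for Lrrtm4. The dentate granule cell markers had a median log2 difference of 0.14, with 4 of 5 above 0 and 0 of 5 past the test.

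RefSeq transcripts of Lrrtm4 encode short proteins of 518 or 519 codons and longer ones of 590 or 591. The long-form transcript NM_001134743 had 32.3 and 27.3 units in WT-WD and 23.5 and 22.0 in KO-WD. The short-form transcript NM_178731 had 6.90 and 6.44 in WT-WD and 11.0 and 13.9 in KO-WD. Both separated the genotypes, in opposite directions. NM_001134743 carried 32.2% ± 0.07 of Lrrtm4 signal in WT-WD and 22.9% ± 0.56 in KO-WD (SD, n = 2 each, two-sided exact permutation p = 0.33). Its log2 difference was -0.37 (SE 0.26, limma adjusted p = 0.940), and that of NM_178731 was 0.80 (SE 0.39, limma adjusted p = 0.912). The other long-form transcript, NM_001347261, had 51.1 and 42.0 units in WT-WD and 55.4 and 47.7 in KO-WD and held the largest share in every library. The other short-form transcript, NM_001282102, had 9.86 and 9.27 units in WT-WD and 11.0 and 13.8 in KO-WD.

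Lrrtm1 had the highest signal of the 9 genes, and most of it was labelled non-coding. The gene sum was 3492 and 2416 units in WT-WD and 2290 and 2154 in KO-WD, lower in both KO-WD libraries. The non-coding transcripts NR_155299 and NR_155300 held 94.4% and 93.9% of that signal in WT-WD and 90.7% and 90.3% in KO-WD. The length of neither could be matched. The log2 difference of the sum was -0.39 (SE 0.18, unadjusted p = 0.0740, limma adjusted p = 0.902), and it was -0.12 without WT-WD replicate 1, the highest library. NR_155299 had 1609 and 1312 units in WT-WD and 1053 and 1088 in KO-WD, with a log2 difference of -0.44 (SE 0.15, unadjusted p = 0.0335, limma adjusted p = 0.856). NR_155300 had 1687 and 957 units in WT-WD and 1024 and 857 in KO-WD, where WT-WD replicate 2 lay between the KO-WD libraries.

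For the coding transcripts of Lrrtm1 the sum had a log2 difference above 0, which did not pass the test. Together NM_028880 and NM_001362109 (522 codons each) had 196 and 147 units in WT-WD and 213 and 208 in KO-WD, higher in both KO-WD libraries. The log2 difference of their sum was 0.31 (SE 0.14, unadjusted p = 0.0584, limma adjusted p = 0.809 in a fit of coding transcripts alone). NM_028880 had 63.0 and 71.1 units in WT-WD and 74.4 and 94.8 in KO-WD. NM_001362109 had 133 and 76.2 in WT-WD and 139 and 113 in KO-WD, and its genotypes overlapped. Lrrtm1 lies inside Ctnna2, which had 224 and 242 units in WT-WD and 245 and 219 in KO-WD. The use of strand in counting is not given, so reads of an overlapping host gene and of the gene within it cannot be told apart where they share bases.

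**Figure D4:**
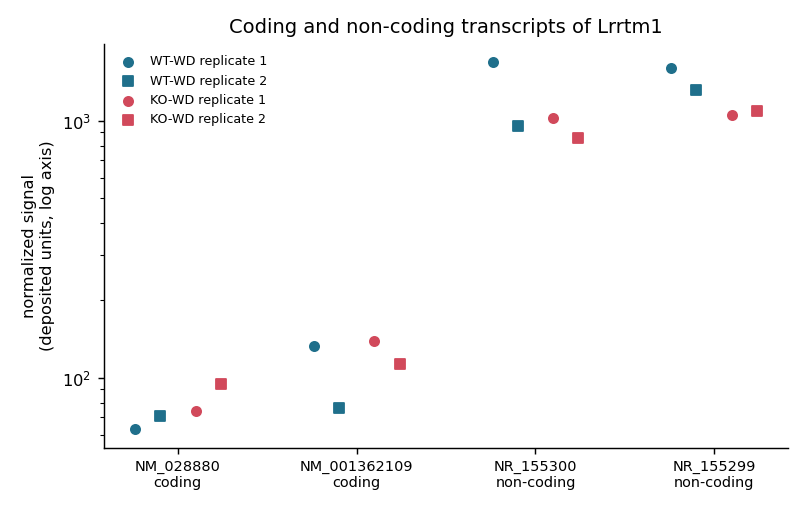
Signal of the coding (NM) and non-coding (NR) transcripts of Lrrtm1 in each library (log axis, deposited units, WT-WD blue, KO-WD red). The non-coding transcripts lie between 857 and 1687 units and the coding ones between 63.0 and 139, with NR_155299 lower and NM_028880 higher in both KO-WD libraries.

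The make-up of the LRRTM family depended on this split. Over all transcripts Lrrtm1 held 93.2% ± 1.17 of LRRTM signal in WT-WD and 91.7% ± 0.52 in KO-WD (SD, n = 2 each). Over coding transcripts alone it held 47.0% and 42.6% in WT-WD and 51.9% and 50.4% in KO-WD. On that coding scale Lrrtm4 held 24.3% ± 0.39 in WT-WD and 24.1% ± 0.68 in KO-WD. Lrrtm2 held 20.9% ± 1.16 and 18.3% ± 0.75. Lrrtm3 held 8.86% and 11.1% in WT-WD and 5.77% and 7.17% in KO-WD. The genotypes did not overlap in the coding shares of Lrrtm1, Lrrtm2 and Lrrtm3, and overlapped in that of Lrrtm4. Shares within a family depend on each other, since they divide the same total.

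The proteins around these pairs were read from 5 lists of 74 genes in all, and 0 of 74 passed the adjusted threshold. At an unadjusted p under 0.05 there were 3 of 74, against 5.28% of all genes, and the genotypes did not overlap in 31 of 74, where 36.3% of all genes did not overlap. Both KO-WD libraries were lower in 22 of 74, against 18.4% of all genes, and higher in 9 of 74, against 17.9%. The median log2 difference was -0.01. Of 19 other neurexin ligands, 11 had a log2 difference below 0 and 8 above, with a median of -0.08. Car10, a secretory-pathway protein that binds neurexins, had 179 and 171 units in WT-WD and 128 and 127 in KO-WD (log2 -0.45, SE 0.12, unadjusted p = 0.00564, limma adjusted p = 0.726). Cbln2, a cerebellin that bridges neurexins and delta-type glutamate receptors, had 29.5 and 24.5 units in WT-WD and 15.7 and 19.9 in KO-WD (log2 -0.58, SE 0.23, limma adjusted p = 0.902). Both genes were lower in both KO-WD libraries.

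Of 9 genes for splicing and shedding of neurexins and neuroligins, 7 had a log2 difference below 0 and 2 above, with a median of -0.15. Khdrbs3, a splicing factor that regulates the neurexin splice site 4 exon, had 259 and 282 units in WT-WD and 231 and 217 in KO-WD. Its log2 difference was -0.27 (SE 0.11, unadjusted p = 0.0447, limma adjusted p = 0.902).

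Of 13 postsynaptic partners of neuroligins, 11 had a log2 difference above 0 and 2 below, with a median of 0.05. Among these scaffold genes, Dlg3 had 457 and 422 units in WT-WD and 481 and 501 in KO-WD, while Dlg1 had 235 and 268 in WT-WD and 199 and 247 in KO-WD. The 8 presynaptic scaffolds had a median of -0.03, with 6 below 0. Of these, Lin7a had 105 and 102 units in WT-WD and 97.1 and 85.2 in KO-WD. Apba2 overlapped between genotypes. The 25 other trans-synaptic adhesion genes divided into 13 below 0 and 12 above, with a median of -0.01. There, the netrin-G ligand gene Lrrc4c had 157 and 179 units in WT-WD and 139 and 144 in KO-WD. The ephrin gene Efnb3 had 261 and 276 in WT-WD and 240 and 235 in KO-WD.

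**Figure D5:**
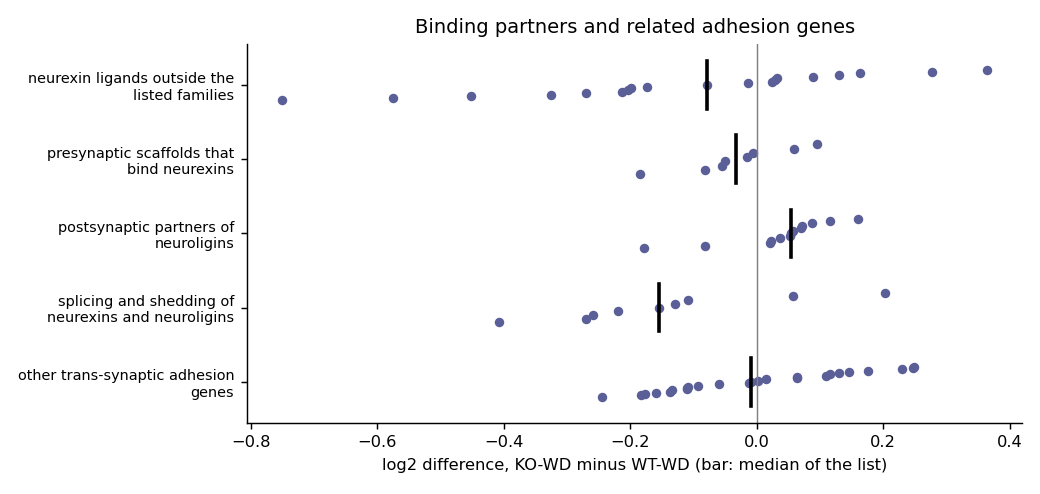
Log2 difference between KO-WD and WT-WD of each of the 74 partner and adhesion genes (points), by list, with the list's median as a black bar. All points lie between -0.75 and 0.36, and the medians lie between -0.15 and 0.05.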

How the data were processed

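Per the labels' protocols, libraries were made from hippocampal total RNA with an Ion Total-RNA kit. STAR, Partek and the mouse build mm39 are named without versions, per the submitters' processing notes; the sources used here do not give the normalization, the transcript quantification or the use of strand. The authors deposited 1 table per library of normalized signal for 30108 RefSeq transcripts, and a constant of 0.0001 carried by every value was subtracted here. Between 16.5% and 22.6% of transcripts below 20 reads were whole multiples of 1 read within 0.02 read, so no count model was used, and read numbers are estimates.

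Transcripts were named from a RefSeq table (30073 matched, 35 not) and summed. Lengths and exons came from GENCODE M21, which matched 19 of the 25 transcripts. Genes reaching 1 unit or more in at least 2 libraries were compared with limma 3.58.1 (R 4.3.3) on log2(value + 1), with trend and robust moderation, genotype as the only term and Benjamini-Hochberg adjustment over all features tested. The same was done for single transcripts and, chosen after seeing the data, for each transcript's log2 ratio to the rest of its gene. Alternatives were quantile and median-ratio scaling, no filter or one at 5 units, pseudocounts of 0.1 and 0.5, no trend or robust moderation, coding transcripts alone, a replicate block and leaving out each library.

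The members and lists were chosen with earlier results of these data known. All members and their transcripts are named, and in each partner list the 2 genes with the smallest unadjusted p. Some items that this rule selects are not reported here. C1ql2 is in the ligand and dentate lists, and Syt1 in the scaffold and neuron lists. Coordinates are on GRCm38, not the authors' build.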

Additional observations from a re-analysis of the deposited data

How the results depend on the processing

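The count of 0 of 9 genes and 0 of 25 transcripts past the adjusted threshold held under every alternative that kept all 4 libraries. That includes the replicate block, which gave 0. In the main fit 0 of all 29293 transcripts passed, and Tas1r3 itself did not pass among genes. A count of 0 therefore does not show that levels were alike. The replicate numbers were not shown to pair the libraries, with a correlation of 0.04 between genotypes over genes tested. Directions of small differences did change. With coding transcripts alone the log2 difference of Lrrtm1 turned from -0.39 to 0.31. Leaving out 1 library at a time gave ranges that crossed 0 for Nrxn2 (-0.065 to 0.11), Nlgn2 (-0.11 to 0.017), Nlgn3 with its transcript NM_172932 (-0.025 to 0.097), Lrrtm2 with NM_178005 (-0.14 to 0.0092) and Lrrtm4 (-0.014 to 0.22). Among single transcripts the ranges crossed 0 for NM_020253 (-1.02 to 0.20), NM_001369363 (-0.075 to 0.19), NM_001205234 (-0.0088 to 0.25), NM_172544 (-0.47 to 0.55), NM_001198587 (-0.00062 to 0.10), NM_198862 (-0.052 to 0.34), NM_001364137 (-0.44 to 0.086) and NM_001362109 (-0.080 to 0.71). The cause was not tested. NM_001357097 ranged from 1.50 to 2.71. Shares cannot pass a threshold with 2 libraries a genotype, and depth limits NM_001357097 most, at an estimated 5.79 reads in WT-WD replicate 1.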
